A study of Mus musculus with 6 samples.

Results

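The 8 genes described here, Myc, Mxd1, Mxd3, Mxd4, Mxi1, Mnt, Max and Mlx, form the core of the Myc and Mxd network of transcription factors. They were chosen by symbol, among 18193 genes with a probe set of 1 symbol, and with an earlier result in view: Mxd1 was lower in the RA arrays than in the Ro arrays. Every probe set whose platform annotation gave exactly 1 of these symbols was taken, which gave 18 probe sets, and 17 of them, covering all 8 genes, were bright enough to be tested. Because the RA and Ro arrays entered that choice, all values of RA against Ro below are a description and carry no test.

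Transcript levels came from 6 oligonucleotide arrays of mouse CD4+ T cells (helper T lymphocytes) grown in culture, taken from spleen with peripheral and mesenteric lymph nodes. There were 2 arrays in each of the groups RA, Ro and Control. RA stands for retinoic acid, a metabolite of vitamin A, by the series title, whereas the labels do not expand Ro and give no dose for either. The labels give no strain, age or sex of the mice, nor do they say whether the replicates came from separate cultures. A culture protocol is attached only to Control replicate 2: 5 days with human IL-2 (100 U/ml) and TGF-b1 (5 ng/ml), mouse IL-6 and TNF-a (20 ng/ml each), mouse IL-1b, IL-23 and IL-21 (10 ng/ml each), and antibodies to IL-4 (10 ng/ml) and IFN-gamma (10 ug/ml). Whether the other 5 arrays shared it is not known.

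Myc binds DNA as a dimer with Max, at the hexamer CACGTG and relatives of it, and raises transcription of genes for growth, ribosome production and metabolism. The Mxd proteins and Mnt compete for Max, bind the same sites and recruit Sin3 and histone deacetylases, which repress. Mlx is a second dimer partner, shared by Mondo proteins, which respond to glucose, and by some Mxd proteins. In T cells Myc is induced by antigen and drives growth before division, while Mxd1 is best known as a gene of cells that stop dividing and differentiate.

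The network's own hexamer was looked for in the promoters of its members, from 250 bases before to 50 after each start, as given by RefSeq on GRCm38.p6. Windows were at hand for 7 of the 8 genes, 9 windows in all, since Mxi1 has 3. CACGTG, the same on both strands, lay in 4 of them, 1 each for Mxd4, Mnt, Mlx and Max, against 7.15% of all 32851 windows. These 4 stretches of 30 bases, with the hexamer in capitals, show how near it lies to the start, at -219, -123, -40 and -3 bases in the order given.
Mxd4, chr5:34187912-34187941, minus strand: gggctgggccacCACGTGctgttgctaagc
Mnt, chr11:74830789-74830818, plus strand: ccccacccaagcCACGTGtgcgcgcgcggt
Mlx, chr11:101087238-101087267, plus strand: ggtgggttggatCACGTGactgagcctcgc
Max, chr12:76962234-76962263, minus strand: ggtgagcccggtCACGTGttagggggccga

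The Mxd1 window held no CACGTG. Its 250 bases before the start are shown because Mxd1 is the gene on which the RA and Ro values turn. The capitals mark GGGCGG, the GC box read here on the plus sense of the gene or as CCGCCC on the other strand, with 6 matches, of which the last 2 overlap. GGGCGG lay in 7 of the 9 windows of these genes and in 35.7% of all windows. AGGTCA, the half-site of retinoic acid receptors, or its complement TGACCT, lay in 0 of the 9, against 16.3% of all windows.
Mxd1, chr6:86669160-86669409, minus strand: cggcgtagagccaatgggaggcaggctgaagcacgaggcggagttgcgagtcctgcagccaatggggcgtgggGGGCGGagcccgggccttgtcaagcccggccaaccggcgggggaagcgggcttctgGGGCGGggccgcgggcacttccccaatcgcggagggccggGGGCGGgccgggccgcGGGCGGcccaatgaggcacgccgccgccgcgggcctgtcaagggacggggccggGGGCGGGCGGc

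The arrays differed in general brightness, with median signals from 16.2 to 23.7 arbitrary units, and Control replicate 2 stood apart. Its log2 values correlated with the other arrays at 0.911 to 0.917 over all probe sets, against 0.961 to 0.972 among the other 5. All 8 CD4 T cell markers on the array passed the filter and summed to 19298 to 31375, but Cd4 stood at 463 on Control replicate 2 and at 1141 to 1791 on the rest. Log2 differences below are therefore given less the median difference of all 29531 tested probe sets, which was -0.21 for RA minus Ro, 0.09 for RA minus Control and 0.29 for Ro minus Control. Signals are given as deposited. Signals of different probe sets are not on a common scale, so genes are not ranked by level. In RNA of mixed cells, fewer cells of a type and less RNA per cell cannot be told apart.

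Among the repressors, Mxd1 separated all 3 groups. Its brightest probe set, 1434830_at, had signals of 269.6 and 427 in RA, 1246 and 1131 in Ro, and 544 and 603 in Control. Both RA arrays were the lowest of the 6 and both Ro arrays the highest, with Control between them and no overlap between any groups. The means were 348 ± 111 in RA, 1189 ± 81.8 in Ro and 574 ± 41.7 in Control (SD, n = 2 each), so the RA mean was 0.293 times the Ro mean. The log2 difference of RA minus Ro was -1.58 (SE 0.35), and it lay between -1.85 and -1.32 when any 1 of the 4 arrays was left out.

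The other Mxd1 probe sets had the same order of groups in the deposited signals. Probe set 1455104_at read 103 and 161 in RA, 369.9 and 407 in Ro, and 167 and 269.9 in Control, with a log2 difference of -1.35 (SE 0.43) for RA minus Ro. Probe set 1422002_at was dim, at 10.00 and 4.09 in RA, 36.1 and 39.5 in Ro, and 25.1 and 23.7 in Control. Only 1 of its RA arrays was above the filter, so this probe set was tested on account of its Ro and Control arrays, and its difference of -1.87 (SE 0.48) is uncertain in size. Over the 6 arrays the array-centred log2 values of the 3 probe sets correlated at 0.76 to 0.96. After each array was centred on its median, all 3 still had RA below Ro, but 1455104_at overlapped between RA and Control, and 1455104_at and 1422002_at between Ro and Control. The 3 sets of values come from the same hybridisations and are not independent of each other.

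**Figure D1:**
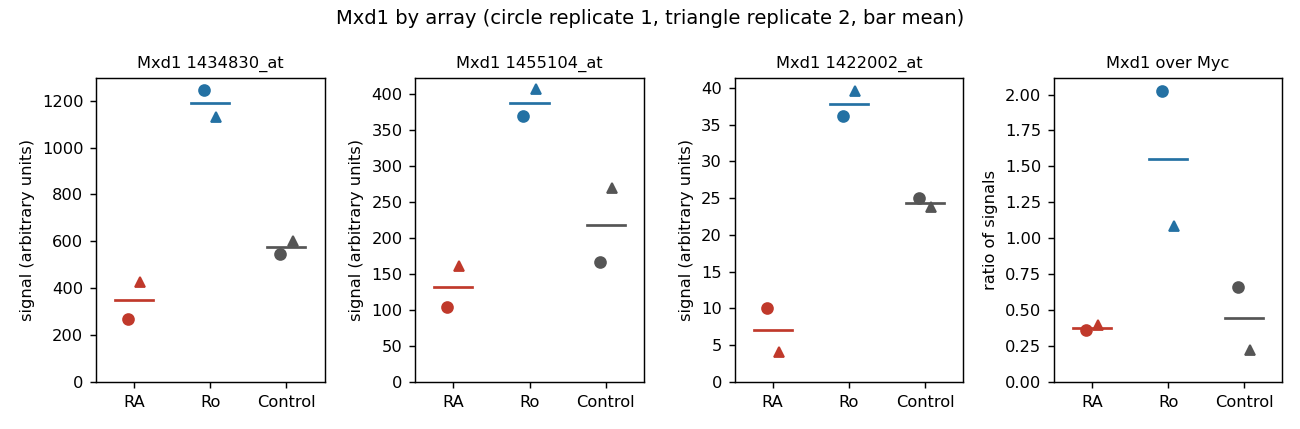
Signals of the 3 Mxd1 probe sets in arbitrary units, and the ratio of Mxd1 to Myc signal (1434830_at over Myc's only probe set), on each array of RA, Ro and Control; circles are replicate 1, triangles replicate 2 and bars the means, from axes that start at 0. In each Mxd1 panel both RA arrays lie below both Control arrays and both Ro arrays above them, and the ratio is 0.359 and 0.394 in RA against 2.02 and 1.09 in Ro.

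Against Control, the brightest Mxd1 probe set had log2 differences of -0.84 (SE 0.35) for RA and 0.76 (SE 0.35) for Ro. In the limma fit over all probe sets the adjusted p was 0.977 for RA minus Control and 0.662 for Ro minus Control, so neither passed, and over all alternatives these ran from 0.142 to 1.00 and from 0.0714 to 0.999. At 1434830_at the difference kept its direction against either Control array alone: -1.18 and -0.48 for RA, and 0.43 and 1.07 for Ro, without Control replicate 1 and without Control replicate 2 in turn. Without Control replicate 1, the Ro minus Control difference turned to -0.03 at 1455104_at, against 0.57 with both Control arrays, and was 0.06 at 1422002_at, against 0.29. RA and Ro share these Control arrays. Relative to its array's median signal, Mxd1 stood at 15.2 and 20.5 in RA, 62.3 and 52.7 in Ro, and 23.0 and 37.1 in Control.

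Mxd1 did not stand alone in separating RA from Ro. Markers of mast cells and basophils, 7 of 7 measured (Cpa3, Cma1, Mcpt8, Fcer1a, Tpsb2, Kit and Ms4a2), had both RA arrays below both Ro arrays, against 38% of all tested genes. Their summed signal was 1479.9 and 1292 in RA, 5565 and 3672 in Ro, and 3672 and 157 in Control. None was at 0, but Tpsb2 was as low as 1.93 and 2.42 in RA. Only its Ro arrays and Control replicate 1 were above the filter, so its place among the 7 rests on them. On Control replicate 2 those markers summed to the lowest value of all arrays, although Kit was at its highest there, at 119.8, while Mxd1, at 603, was above both RA arrays. Both CD8 T cell markers were also lower in RA than in Ro without overlap, with sums of 58.9 and 93.1 in RA, 139 and 187 in Ro, and 135 and 321 in Control. Of these, Cd8a was dim, at 4.29 and 6.47 in RA and 15.6 and 23.2 in Ro. Only its Ro arrays and Control replicate 2 were above the filter, so it was tested on account of those arrays. The part of either cell type in the difference of Mxd1 between RA and Ro was not tested.

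Between RA and Ro, Mxi1 at both its probe sets and Mxd4 at its brightest one had values in the opposite direction to Mxd1. Both genes encode repressors of the same family. Mxi1 had signals of 430.4 and 426 in RA, 349.9 and 357 in Ro, and 374 and 863 in Control (1450376_at). Both RA arrays were above both Ro arrays, which lay close together, and Control replicate 2 was by far the highest. The log2 difference of RA minus Ro was 0.49 (SE 0.45), and at the second Mxi1 probe set, 1425732_a_at, it was 0.86 (SE 0.41), again without overlap. That probe set read 142 and 91.4 in RA, 67.3 and 76.6 in Ro, and 134 and 167 in Control.

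Mxd4, the family member usually linked with resting or differentiating cells, had signals of 425 and 365 in RA, 318 and 322 in Ro, and 366 and 222 in Control (1434378_a_at). The RA arrays lay above the Ro arrays, by 0.51 (SE 0.39) on the log2 scale. Its other 3 probe sets did not repeat this: their differences were 0.26, -0.07 and -0.02, and correlations over arrays between pairs of Mxd4 probe sets ranged from -0.53 to 0.69. As the mean of its 4 probe sets, the Mxd4 difference was only 0.17.

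Mxd3, a family member that in mouse is expressed in dividing cells, varied more between the Ro replicates than between RA and Ro. Its signals were 589 and 298 in RA, 1007 and 139.9 in Ro, and 241 and 61.7 in Control (1448878_at). The Ro replicates were 7.20-fold apart and spanned both RA values. The log2 difference of RA minus Ro, 0.37 (SE 1.00), turned to -1.09 without Ro replicate 2 and to -0.19 without RA replicate 1, and was 1.85 without Ro replicate 1. The 3 Mxd3 probe sets moved together across arrays, with correlations of 0.964 to 0.996.

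**Figure D2:**
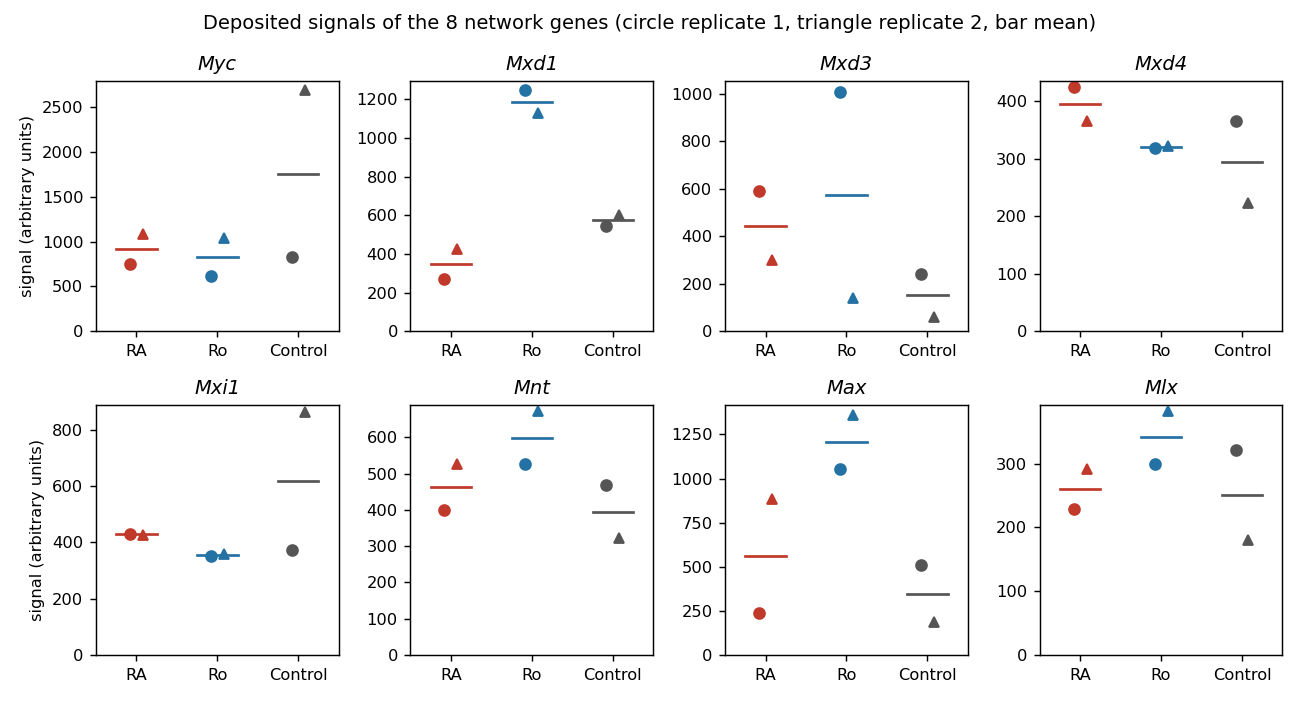
Deposited signal in arbitrary units of the brightest probe set of each of the 8 genes on the RA, Ro and Control arrays, with circles for replicate 1, triangles for replicate 2, bars for the means and axes from 0. Mxd1 is the gene whose 3 groups lie apart; Max has RA arrays at 236 and 887, and Myc and Mxi1 are highest on Control replicate 2, at 2687 and 863.

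The genes of the activating arm behaved differently. Myc, measured by 1 probe set, had signals of 751 and 1084 in RA, 616 and 1040.4 in Ro, and 826 and 2687 in Control. RA and Ro overlapped, and the single high array was Control replicate 2. The log2 difference of RA minus Ro was 0.38 (SE 0.58), from 0.08 to 0.71 when any 1 of the 4 arrays was left out. The ratio of Mxd1 to Myc signal on the same array, which is free of array brightness, was 0.359 and 0.394 in RA, 2.02 and 1.09 in Ro, and 0.659 and 0.225 in Control. The mean ratio in RA was 0.254 times that in Ro (geometric means).

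Max, the partner of both arms, had signals of 236 and 887 in RA, 1054 and 1359.9 in Ro, and 507 and 189 in Control. Both Ro arrays were above all other arrays, but the RA arrays differed 3.75-fold from each other. The log2 difference of RA minus Ro was -1.17 (SE 0.70), and it was -0.28 without RA replicate 1 and -2.05 without RA replicate 2. Max was measured by 1 probe set, so no second reading of the gene was to be had.

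Mnt, a repressor expressed in dividing and resting cells alike, and Mlx differed least. Mnt had signals of 401 and 528 in RA, 527 and 672 in Ro, and 469 and 322 in Control, and the RA and Ro arrays overlapped, if barely. Its second probe set, 1418193_at, read 0.869 to 3.35 over the 6 arrays, under the filter on all of them, and was not tested. Mlx had signals of 229 and 291 in RA, 299.6 and 382 in Ro, and 321 and 181 in Control (1418437_a_at). The log2 differences of RA minus Ro were -0.16 (SE 0.38) for Mnt and -0.17 (SE 0.42) for that Mlx probe set, and 0.11 (SE 0.48) for the other Mlx probe set.

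Over the 17 tested probe sets, the RA arrays were both under the lower Ro array for 6 (3 of Mxd1 and 1 each of Max, Mxd4 and Mlx) and above them for 3 (both of Mxi1 and 1 of Mxd4). In all tested probe sets the shares were 33.8% below and 6.83% above. With each array centred on its median the members' counts were 4 below and 3 above, beside 18.3% and 16.3%. With a 2-fold difference of means as well, 4 probe sets were below, those of Mxd1 and Max, and 0 above, beside 4.12% and 1.9%. Nothing can be read from these counts, since this contrast helped to choose the genes. The median difference over the 17 was 0.11.

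**Figure D3:**
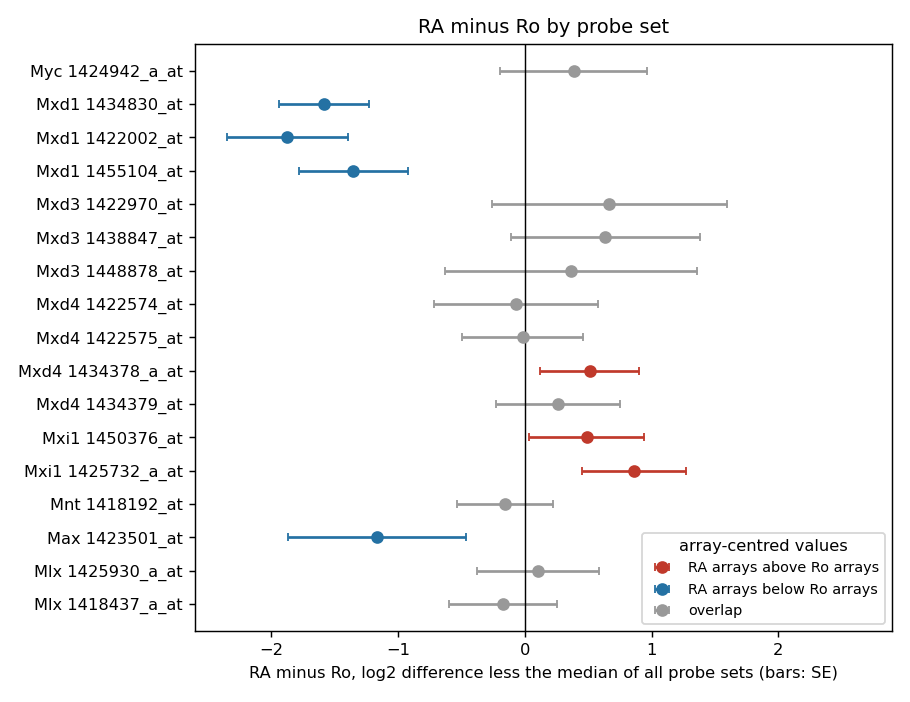
Log2 difference of RA minus Ro for the 17 tested probe sets, less the median of all tested probe sets, with bars for the standard error from the fit of all 6 arrays; colours give the order of array-centred values. The 3 Mxd1 probe sets lie at -1.87, -1.58 and -1.35 and Max at -1.17, the Mxi1 probe sets at 0.49 and 0.86, and the Mxd3 probe sets carry the widest bars.

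The comparison with Control asks how the network stood in RA and in Ro cultures beside cultures with neither label. In the limma fit 0 of 17 member probe sets passed an adjusted p of 0.05 in RA minus Control (lowest 0.977) and 0 of 17 in Ro minus Control (lowest 0.662). The fit called 0 of all tested probe sets in both comparisons, or 0%, with 535 (1.81%) and 1201 (4.07%) at an unadjusted p under 0.05 in RA minus Control and in Ro minus Control. Of the members, 2 had such a p in RA minus Control, Mxd1 1422002_at and Mxd3 1438847_at, and 3 in Ro minus Control, Mxd1 1434830_at, Mxi1 1425732_a_at and Max. The p-values of Mxd1 are no independent test, since its RA and Ro arrays helped to choose the genes and 1422002_at passed the filter through its Ro and Control arrays. Without regard to size, signals in RA did not overlap those of Control for the 3 Mxd1 probe sets, which were lower, and the 3 of Mxd3, which were higher, beside 15.1% and 9.93% of all probe sets. In Ro the 2 of Mxi1 were lower and 6 were higher, those of Mxd1 with Mnt, Max and Mxd4 1422574_at, beside 9.73% and 26%. The replicates may be technical, and these p-values measure only the spread between them.

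For Myc and Mxi1 the values against Control turned on Control replicate 2. The Myc log2 difference was -0.81 (SE 0.58) in RA minus Control and -1.18 (SE 0.58) in Ro minus Control. Without Control replicate 2 these were 0.32 and -0.09, and without Control replicate 1 they were -1.93 and -2.29, where limma gave adjusted p values of 0.0281 and 0.0137 (range over all alternatives 0.0281 to 1.00 and 0.0137 to 0.999). Mxi1 showed the same dependence, at -0.49 and -0.97 with both Control arrays, 0.39 and -0.13 without Control replicate 2, and -1.36 and -1.82 without Control replicate 1. Such fits have 1 Control array and take its spread from the other groups. Without Control replicate 1 the members called were 3 higher and 1 lower of 17 in RA minus Control and 4 higher and 2 lower in Ro minus Control, beside 11.5% and 3.64%, and 21.4% and 3.52%, of all probe sets in those directions. In both comparisons these were 1422970_at and 1438847_at of Mxd3 and 1422574_at of Mxd4 (higher) and Myc (lower), joined in Ro by Max (higher) and Mxi1 1450376_at (lower). Without Control replicate 2, 0 probe sets of any gene were called (0%), with 757 and 1043 at an unadjusted p under 0.05.

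Max and Mxd3 differed from Control in value as well. Max stood 1.66 (SE 0.70) above Control in Ro on the log2 scale, and 1.19 above it without Control replicate 2, both without overlap of signals (limma adjusted p = 0.662 with all 6 arrays, from 0.0233 to 0.999 over all alternatives). In RA the Max difference was 0.48 (SE 0.70) and turned to -0.41 without RA replicate 2. Mxd3 was above Control by 1.66 (SE 1.00) in RA and by 1.31 (SE 1.00) in Ro, and the Ro value was -0.16 without Ro replicate 1. Among the 14 proliferation genes described below, 12 had both RA arrays above both Control arrays, beside 11.9% of all genes.

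**Figure D4:**
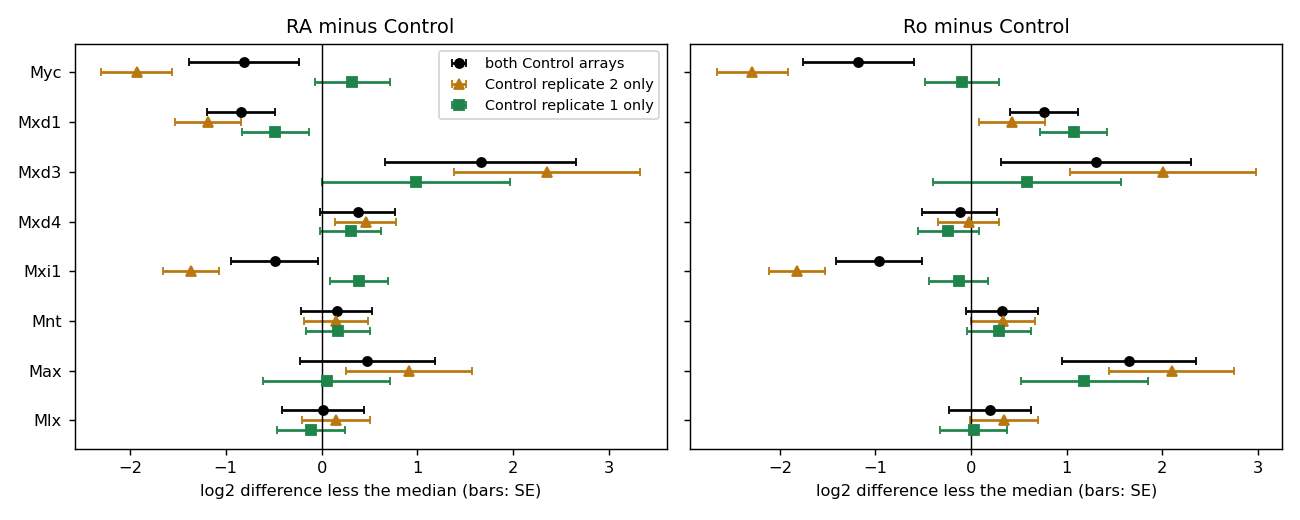
Log2 differences, less the median of all tested probe sets, of RA minus Control on the left and Ro minus Control on the right for the 8 genes, with standard error bars: black circles use both Control arrays, orange triangles Control replicate 2 alone and green squares Control replicate 1 alone. Myc and Mxi1 lie between -0.13 and 0.39 with Control replicate 1 alone and at -1.36 or lower with Control replicate 2 alone, whereas Mxd1, by its brightest probe set, stays on one side of 0.

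Genes that Myc is known to induce, a list of 42 measured genes for nucleolar, nucleotide, metabolic and cell cycle functions, shared with Myc its high level on Control replicate 2. Expressed as array-centred log2 values less their mean over the 6 arrays, the list averaged 1.38 on Control replicate 2 and between -0.38 and -0.19 on the other 5, and Myc was at 1.89 and between -0.84 and 0.05. On the other 5 arrays the list was nearly flat, and on Ro replicate 1, where Myc was lowest at -0.84, the list stood at -0.28. Odc1 and Srm, among the enzymes of polyamine synthesis and picked here after their values were seen, had 2780 and 2410.4 on Control replicate 2 and at most 1484 and 569 elsewhere. Between RA and Ro the list had a median log2 difference of 0.06, with 23 genes above the median probe set and 19 below, where 52.9% of all genes were below. The RA arrays lay below the Ro arrays without overlap for 7 of the 42 and above for 2, beside 38% and 6.33% of all genes.

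Within that list 4 genes stood furthest apart between RA and Ro without overlap. Slc7a5, the light chain of a large amino acid transporter, had 164 and 269.6 in RA, 967 and 361 in Ro, and 232 and 1934 in Control. Slc3a2, its heavy chain, had 1071 and 1162 in RA, 2320 and 1424 in Ro, and 1327 and 2858 in Control. So both chains were lower in RA than in Ro by value, at -1.27 (SE 0.96) and -0.49 (SE 0.43), and both were highest on Control replicate 2. In the other direction, Nop58, a nucleolar protein, had 469 and 308 in RA, 280.4 and 299 in Ro, and 396 and 1263 in Control, and Tert, the telomerase enzyme, 72.7 and 49.6 in RA, 35.3 and 47.8 in Ro, and 60.4 and 20.3 in Control.

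Against Control the growth list lay lower in both RA (41 of 42 genes below the median probe set, list median -0.75) and Ro (42 of 42, -0.65), where 48.6% and 47.7% of all genes were below it. None of the 42 passed in limma in either comparison, with 2 and 0 at an unadjusted p under 0.05. Without Control replicate 2 the list medians were 0.08 and 0.01, with 13 and 20 genes below. Without Control replicate 1 they were -1.50 and -1.43. The difference of the list from Control thus rested on Control replicate 2.

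A second pattern across arrays was that of genes of dividing cells. The 14 measured proliferation genes, such as Mki67 and Plk1, summed to 28780.4 and 22745 in RA, 36782 and 13891 in Ro, and 18178 and 6906 in Control. Mxd3 followed the same order of arrays, highest on Ro replicate 1 and RA replicate 1 and lowest on Ro replicate 2 and Control replicate 2. The median difference of the list was 0.44 for RA minus Ro and turned to -0.38 without Ro replicate 2, as the Mxd3 difference did. The part of dividing cells in the values of Mxd3 was not tested.

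**Figure D5:**
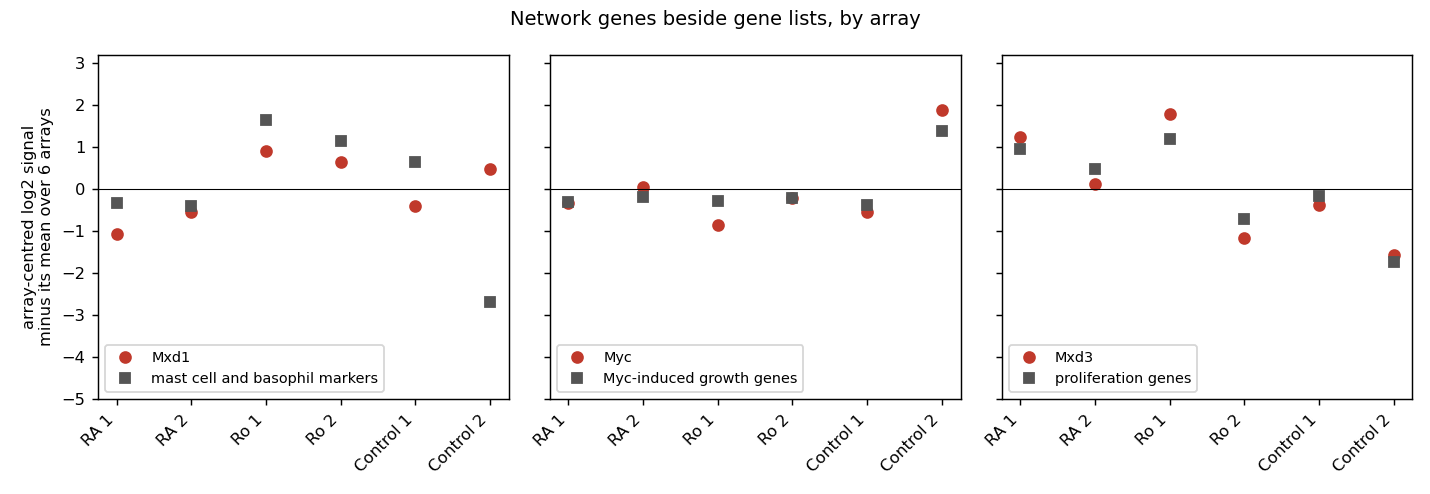
Array-centred log2 signals less their mean over the 6 arrays, for Mxd1 beside the mean of 7 mast cell and basophil markers, Myc beside the mean of 42 Myc-induced growth genes, and Mxd3 beside the mean of 14 proliferation genes (red circles for the gene, grey squares for the list). Myc and the growth genes are high on Control replicate 2 alone, at 1.89 and 1.38; Mxd3 and proliferation genes take the same path; Mxd1 and the mast cell markers part on Control replicate 2, at 0.48 and -2.68.

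Corepressors and cofactors of the network were also set side by side. Of 12 measured subunits of the Sin3 and deacetylase complexes that Mxd proteins and Mnt recruit, 7 were lower in RA than in Ro without overlap as deposited and 4 after array centring, beside 38% and 20.4% of all genes. Of those 7, Arid4b and Arid4a, which bind the Sin3 complex, had the largest differences, at -0.59 (SE 0.55) and -0.57 (SE 0.64), whereas Sap30, a subunit named here after its value was seen, overlapped and lay at 0.60 (SE 0.58). Arid4b read 346 and 525 in RA, 605 and 921 in Ro, and 544 and 191 in Control. Sin3a and Hdac1 were at -0.26 and -0.15. Of the 10 measured Myc cofactors, 8 were lower in RA than in Ro without overlap as deposited and 3 after array centring, beside the same shares of all genes. Their median was -0.16, with Ep400, Zbtb17, Trrap and Wdr5 at -0.35, -0.32, -0.29 and -0.17, and 0 of the 12 and 0 of the 10 passed in limma in either comparison with Control.

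Of 12 measured genes that control the life span of Myc protein, the median was -0.15 for RA minus Ro. Usp28, a deubiquitinase that stabilises Myc, and Fbxw7, the ubiquitin ligase subunit that marks Myc for destruction, lay at -0.56 (SE 0.63) and -0.42 (SE 0.37). Fbxw7 was at most 286 in RA, at least 341 in Ro, and 268 and 276 in Control. Ppp2r5a and Fbxl14 were at -0.28 and -0.05. Of 8 genes that Myc represses, Ndrg1 and Gadd45b were lower in RA than in Ro without overlap, a share under the 38% of all genes, at -0.75 (SE 0.68) and -0.42 (SE 0.45), with a list median of 0.02. Among 4 targets of Mondo and Mlx, the arrestin-related Arrdc4 stood at 0.75 (SE 0.56) and the pyruvate kinase gene Pklr at 0.36 (SE 0.43), and Txnip overlapped. Pklr was dim, at 16.7 and 16.8 in RA, 14.9 and 14.7 in Ro, and 16.3 and 19.3 in Control. Only on Control replicate 2 was Pklr above the median signal of its array. The other network genes measured, Mycn, Mga and Mlxip, overlapped between RA and Ro. In all these lists 0 genes passed in limma in RA minus Control or in Ro minus Control with all 6 arrays. Without Control replicate 1, the turnover list had medians of 0.60 in RA minus Control and 0.50 in Ro minus Control. In the same order, the Myc-repressed list had 0.38 and -0.08, and the targets of Mondo and Mlx 0.94 and 0.54. The corepressors had 0.42 and 0.44, the cofactors -0.19 and 0.02, and the other network genes -0.001 and 0.61.

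The genes whose pattern was most like that of Mxd1 over the 6 arrays, among 5181 genes with an SD of at least 0.5 on the log2 scale, were Il12rb2, Carmil1, Zxda, Nectin1 and Car4, with Pearson r from 0.956 to 0.964. Il12rb2, which encodes an interleukin 12 receptor subunit, had 19.1 and 45.6 in RA, 117 and 137 in Ro, and 37.7 and 73.7 in Control. The other 4 were dim, with at most 35.5 on any array. Carmil1 and Car4 were above the filter only on their Ro arrays, where Mxd1 was highest. Nectin1 was above it only on its Ro and Control arrays. The place of these genes among those most like Mxd1 rests on those arrays. With so few arrays, and the highest values chosen among so many genes, these r are a description. Of the members, each by its brightest probe set, Mxd4 ran most opposite to Mxd1, at -0.86. Mxi1 was at 0.04 over the 6 arrays. Over the 4 RA and Ro arrays alone, Mxi1 was at -0.967 and Mxd4 at -0.942. Those 2 values restate the separation of RA and Ro given above and are no further result. The other Mxd4 probe sets were not compared with Mxd1.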

How the data were processed

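The deposited table holds a linear intensity for each probe set and array, which the authors made with MAS5, per the submitters' processing notes, without a version. No source used here gives the scaling target. Groups and replicate numbers were read from the sample titles, where one title writes Ro as RO. Labelling used 2 ug of RNA for each array, per the labels' protocols. The 64 control probe sets were left out. Gene symbols are those of GEO's annotation of the platform (34945 probe sets with 1 symbol, 932 with several, 9160 with none), and symbols checked by Entrez ID in RefSeq changed in 0 cases.

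A probe set was tested if above its array's 40th percentile on at least 2 arrays, which left 29531. In R 4.3.3, limma 3.58.1 (lmFit, eBayes with intensity trend, two-sided) was fitted to log2(signal + 2.99) of all 6 arrays, with a pseudocount at the 20th percentile of the values, which shrinks differences of dim probe sets. P-values were adjusted by Benjamini-Hochberg over all tested probe sets and test the deposited values, whereas differences are printed less the median. Where 1 value a gene was needed, the tested probe set of highest mean log2 signal was used, and _x_at sets only where no other existed. The number of arrays limits precision. An exact test of 2 arrays against 2 cannot go below p = 0.333. The fit was checked on simulated data in which every array had the same spread. That check does not cover an array that stands apart, as Control replicate 2 does here.

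All 8 genes were named. Of each list, up to 4 genes with the largest RA minus Ro difference without overlap were named. The 5 genes most like Mxd1 and 3 most like Myc were named. Members and lists were chosen with earlier results of these data known. Alternatives were another pseudocount, normalization, filter or variance model, the replicate number as a block, only the groups compared, the mean of a gene's probe sets, and leaving out each array. Subtraction of array medians was added after seeing the data.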

Additional observations from a re-analysis of the deposited data

How the results depend on the processing

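The limma fit of all 6 arrays called 0 probe sets in each comparison. For RA minus Ro the count was 12 in the fit of only the groups compared, and from 0 to 12 when each array was left out in turn. None of this applies to the members as a test, since RA against Ro chose them. For RA minus Control the count without 1 array ran from 0 to 4370 and for Ro minus Control from 0 to 7207. The highest counts both came without Control replicate 1. Whichever Control array is left out, the spread comes from the RA and Ro arrays alone. Without Control replicate 2 the count was 0 in both comparisons. The cause of this difference between the fits was not tested. Every other setting gave 0, including subtraction of array medians, chosen after seeing the data, with 525, 676 and 1721 at an unadjusted p under 0.05 for RA minus Ro, RA minus Control and Ro minus Control. With the replicate number as a block the counts were also 0, and 404, 891 and 1230 had such a p. Deviations from the group mean of same-numbered arrays correlated at 0.249 for RA and Ro. For RA and Control they correlated at 0.005, and for Ro and Control at -0.029. These values cannot say whether RA and Ro arrays of the same number were paired, and the labels name no pairing.

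The 24 log2 differences of the 8 genes in the 3 comparisons were recomputed 336 times. For Mlx in RA minus Control, 0.01, the value was -0.0592 with quantile normalization and -0.0389 with a filter at the 60th percentile, and between -0.11 and 0.15 without 1 array. For Mxd4 in Ro minus Control, -0.12, the value turned to 0.20 as the mean of its probe sets. Leaving out 1 array gave ranges from -1.93 to 0.32 for Myc, -1.36 to 0.39 for Mxi1 and -0.41 to 1.34 for Max in RA minus Control, and from -0.16 to 2.77 for Mxd3 in Ro minus Control. The cause was not tested. Signals of dim probe sets, such as 1422002_at of Mxd1, limit the size of their differences.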

Other observations

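Ratios of members on the same array, which do not depend on array brightness, gave values that belong to no comparison above. Myc over Max was 3.18 and 1.22 in RA, 0.585 and 0.765 in Ro, and 1.63 and 14.3 in Control, with both RA and both Control arrays above both Ro arrays. Mxd1 over Mxi1 was 0.626 and 1.00 in RA, 3.56 and 3.16 in Ro, and 1.46 and 0.700 in Control, so the ratio of these repressors lay lower in RA than in Ro and was between them or level with RA in Control. Mxd1 over Max overlapped between all groups. These were computed after the values of the genes were seen.

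The 3 genes most like Myc over the 6 arrays were Tmem42, Ppp1r14c and Nfkbid, at Pearson r of 0.996 to 0.998, but 297 of 5181 genes had an r over 0.95, and Control replicate 2 holds the highest value of all 3. Nfkbid, an atypical inhibitor of NF-kB, had 549.8 and 661 in RA, 502 and 744 in Ro, and 603 and 936 in Control. Over the 5 arrays without Control replicate 2 the r of these genes with Myc was 0.966 to 0.990.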
